A study of Mus musculus with 3 samples.

Results

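The genes described here encode 6 subunits of the GABA-A receptor and lie in a pair of clusters of the mouse genome. Gabrg1, Gabra2, Gabra4 and Gabrb1 form the cluster on chromosome 5, and Gabrg3 and Gabra5 lie in that on chromosome 7. They were chosen by name, with earlier results of these data known. The data were the 10 kb bins of the deposited table that overlap each gene's RefSeq body by at least 1 bp. The 6 genes covered 172 of 264399 bins, of which 1 was counted for both Gabra4 and Gabrb1. All 6 passed the minimum of 5 measured bins that 6665 of 21678 protein-coding genes met.

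The measure was 5-hydroxymethylcytosine (5hmC) in DNA extracted from mouse cerebellum and sequenced as 3 libraries. The first was DDD-seq (double-stranded DNA deamination sequencing) of tissue from mice under chronic sleep deprivation, the second ACE-seq (an APOBEC-coupled method) of tissue labelled normal/control, and the third DDD-seq of normal/control tissue. Strain, age, sex and the number of animals per library are not given in the sources used here. With 1 library per group there was no replicate error, so no p-value was computed and every difference is one between libraries. Errors are standard errors (SE) over the bins of a gene and measure scatter along the gene, not between animals. The table holds no read counts, so the depth behind each level is unknown.

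GABA-A receptors are chloride channels built from several subunits around a pore, and they carry most fast inhibition in the brain. Alpha and beta subunits form the binding sites for GABA, and gamma subunits contribute to benzodiazepine binding and to anchoring at synapses. The subunit genes lie in clusters that usually pair alpha, beta and gamma genes. In neurons 5hmC, which TET enzymes make by oxidising 5-methylcytosine, occurs mostly at CG dinucleotides and is often enriched over the bodies of transcribed genes. In tissue of mixed cell types, the share of cells that carry the mark and the level per cell cannot be told apart.

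The promoter windows of the chromosome 5 genes are shown because they mark where each gene starts in the profiles and because they differ in their number of CG dinucleotides, the main substrate of the mark. Each window holds 300 bases, from 250 before to 50 after the start site, from RefSeq on GRCm38.p6, written 5′ to 3′ on the strand of the gene with each CG in capitals. The motif searched was CG, which reads the same on both strands. Gabrg1 lies on the minus strand with its window at chr5:70842568-70842867, Gabra2 on the minus strand at chr5:71095800-71096099, Gabra4 on the minus strand at chr5:71658259-71658558 and Gabrb1 on the plus strand at chr5:71657671-71657970.
Gabrg1: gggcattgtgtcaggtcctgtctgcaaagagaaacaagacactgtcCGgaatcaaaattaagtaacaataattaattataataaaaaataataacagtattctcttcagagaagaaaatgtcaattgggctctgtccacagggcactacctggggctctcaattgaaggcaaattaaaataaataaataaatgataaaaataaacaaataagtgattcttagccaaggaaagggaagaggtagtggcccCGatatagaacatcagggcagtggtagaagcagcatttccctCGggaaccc
Gabra2: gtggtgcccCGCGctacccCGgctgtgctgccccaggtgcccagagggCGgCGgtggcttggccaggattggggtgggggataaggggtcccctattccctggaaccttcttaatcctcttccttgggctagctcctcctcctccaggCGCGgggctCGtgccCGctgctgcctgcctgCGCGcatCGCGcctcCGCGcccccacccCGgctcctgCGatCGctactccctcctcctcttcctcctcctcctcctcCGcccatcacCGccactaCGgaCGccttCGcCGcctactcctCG
Gabra4: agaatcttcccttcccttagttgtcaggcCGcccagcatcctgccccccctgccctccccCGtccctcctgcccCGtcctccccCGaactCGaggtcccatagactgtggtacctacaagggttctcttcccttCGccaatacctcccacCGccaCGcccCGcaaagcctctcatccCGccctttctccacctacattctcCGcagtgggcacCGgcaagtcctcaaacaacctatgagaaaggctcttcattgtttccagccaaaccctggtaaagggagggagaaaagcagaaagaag
Gabrb1: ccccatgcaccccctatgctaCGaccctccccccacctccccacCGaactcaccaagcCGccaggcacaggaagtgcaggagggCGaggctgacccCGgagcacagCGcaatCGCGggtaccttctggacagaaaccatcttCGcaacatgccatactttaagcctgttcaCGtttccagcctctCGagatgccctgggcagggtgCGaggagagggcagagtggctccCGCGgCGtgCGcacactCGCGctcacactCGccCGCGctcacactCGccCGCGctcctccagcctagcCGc

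The Gabrg1 window held 3 CG dinucleotides, and 76.7% of the 32851 promoter windows in the table held as many or more. The windows of Gabra2 and Gabrb1 held 25 each, reached by 18.4% of windows, and that of Gabra4 held 12, reached by 39.6%. Gabrb1 has a second entry inside its body, at chr5:71699682-71699981, with 9 CG dinucleotides, reached by 45.8%. The window printed is that at the annotated 5′ end. On chromosome 7 the windows of Gabrg3 and Gabra5 held 13 each, reached by 37.9%, and the median over all windows was 7. The start sites of Gabra4 and Gabrb1 fall in 1 bin, chr5:71650001-71660000, and the annotated bodies overlap there on opposite strands. A bin is far longer than a promoter window, so a start bin describes the surroundings of a promoter and not the promoter itself. In the start bin, Gabrg1 had levels of 2.09% in the sleep-deprived library, 1.30% in the ACE-seq control and 1.60% in the DDD-seq control. Gabra2 had 1.61%, 1.73% and 1.54% in the same libraries, and the bin shared by Gabra4 and Gabrb1 had 1.57%, 1.10% and 1.37%. Start-bin levels of the CG-poor Gabrg1 window and the CG-rich windows thus covered overlapping ranges.

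Over the whole table the libraries had similar averages. Bins averaged 1.55% in the sleep-deprived library, 1.50% in the ACE-seq control and 1.54% in the DDD-seq control, and the median over the 6665 genes was 1.53%, 1.49% and 1.54%. Cerebellar granule cell genes, among them Etv1 at 6.52% in the DDD-seq control as the highest and Grm4 at 1.59% as the lowest, had medians of 3.15%, 3.07% and 3.16% over 7 measured genes. In the DDD-seq control the medians were 2.04% for 6 Purkinje genes (Car8 lowest at 0.866%, Plcb4 highest at 3.25%), 1.37% for 8 interneuron genes (Gad2 1.004%, Ptprk 2.35%), 1.56% for 3 Bergmann glia and astrocyte genes (Aldh1l1 1.27%, Slc1a2 1.85%) and 1.51% for 4 oligodendrocyte genes (Ugt8a 1.09%, St18 2.41%). These medians, too, are of genes with at least 5 bins. Over all listed genes, of 1 bin or more, the granule cell median in the DDD-seq control fell to 1.62% for 18 genes. The medians there were 1.35% for 12 Purkinje genes and 1.32% for 10 interneuron genes. They were 1.35% for 8 Bergmann glia and astrocyte genes and 1.31% for 8 oligodendrocyte genes, beside 1.33% over all genes of 1 bin or more. A low level of 5hmC on DNA does not show that a cell type is absent.

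The alpha subunit genes of chromosome 5 had moderately high 5hmC. Gabra2, an alpha subunit known for its place at synapses of the forebrain and in anxiety circuits (GRCm38 chromosome 5, 70958392 to 71095849, 15 bins), had a body level of 2.10% ± 0.24 in the sleep-deprived library, 1.95% ± 0.17 in the ACE-seq control and 1.99% ± 0.19 in the DDD-seq control. It exceeded 81.0%, 76.9% and 76.4% of genes in these libraries. Gabra4, whose product joins the delta subunit in extrasynaptic receptors (71569734 to 71658308, 10 bins), had 1.69% ± 0.16, 1.72% ± 0.27 and 1.76% ± 0.24, above 62.7%, 66.5% and 65.9% of genes. The levels of both genes differed between the libraries by less than the SE over bins.

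Gabrb1, the beta subunit gene of the cluster (71657921 to 72149572, 50 bins), stood close to Gabra2. Its level was 1.96% ± 0.10 in the sleep-deprived library, 1.98% ± 0.13 in the ACE-seq control and 1.86% ± 0.10 in the DDD-seq control, above 76.1%, 77.7% and 71.3% of genes. Gabrg1, a gamma subunit gene at the lower-coordinate end of the cluster (70751047 to 70842617, 10 bins), had 1.61% ± 0.17, 1.71% ± 0.21 and 1.26% ± 0.19. It was the one of the 6 genes whose place moved most, at percentile 56.7 of genes in the sleep-deprived library, 65.3 in the ACE-seq control and 19.97 in the DDD-seq control.

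Both chromosome 7 genes were lower than Gabra2, Gabrb1 and Gabra4 in each library. Gabrg3, a gamma subunit gene and the longest of the 6 (chromosome 7, 56716463 to 57387215, 68 bins), had 1.07% ± 0.05 in the sleep-deprived library, 1.07% ± 0.04 in the ACE-seq control and 1.15% ± 0.06 in the DDD-seq control. These levels exceeded those of 4.47%, 7.01% and 9.23% of genes. Gabra5, an alpha subunit known for tonic inhibition in the hippocampus (57407669 to 57591016, 20 bins), had 1.44% ± 0.14, 1.33% ± 0.18 and 1.40% ± 0.18, above 41.1%, 32.3% and 35.7% of genes.

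In the DDD-seq control the order was Gabra2, Gabrb1, Gabra4, Gabra5, Gabrg1 and Gabrg3. Neighbours in this order did not differ beyond the sum of their SEs. The median of the 6 genes was 1.65% in the sleep-deprived library, 1.71% in the ACE-seq control and 1.58% in the DDD-seq control, beside 1.53%, 1.49% and 1.54% over all genes. The genes closest in level to each of the 6, by the smallest of the largest differences over the 3 libraries, were Elavl3 for Gabrg1 (0.0751 points), Dnm3 for Gabra2 (0.0227), Ofcc1 for Gabra4 (0.0118), Zfp827 for Gabrb1 (0.0354), Tubgcp2 for Gabrg3 (0.0167) and Runx2 for Gabra5 (0.00919). This likeness is in level alone.

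**Figure D1:**
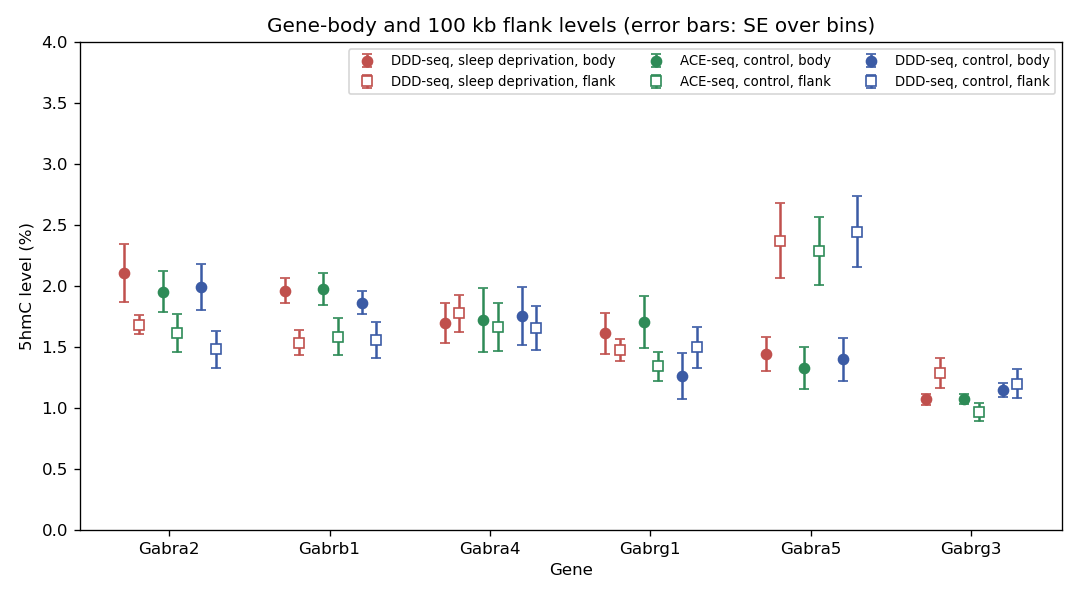
The plot of body and flank levels gives, for each of the 6 genes, the mean 5hmC level in percent over the gene body (filled circles) and over 100 kb on either side (open squares) in the 3 libraries, with bars for the SE over bins. The body lay above the flank in all 3 libraries at Gabra2 and Gabrb1, and far below it at Gabra5, where the flank reached 2.29 to 2.45%.

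The level of each gene was set against its own surroundings, the 20 bins within 100 kb of either end. A gene was counted as above or below its flank when they differed by at least 0.25 percentage points. In the sleep-deprived library 2 of the 6 genes lay above their flank and 1 below, beside 37.2% and 14.9% of all genes. In the ACE-seq control 3 lay above and 1 below, beside 37.4% and 15.6%, and in the DDD-seq control 2 above and 1 below, beside 37.8% and 15.9%. The counts above the flank, 2 or 3 of 6, are near these shares.

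Gabra2 exceeded its flank by 0.420 points in the sleep-deprived library, 0.336 points in the ACE-seq control and 0.509 points in the DDD-seq control. Gabrb1 exceeded its flank by 0.426, 0.392 and 0.306 points. With medians over bins in place of means, Gabra2 differed from its flank by -0.0627 points in the sleep-deprived library, and with a flank of 50 kb the Gabrb1 difference in the DDD-seq control was -0.000763 points. Gabrg1 differed from its flank by 0.137 points, 0.363 points and -0.236 points in the 3 libraries, so its place against its surroundings had no common sign. Gabra4 differed by -0.0818, 0.0583 and 0.101 points and Gabrg3 by -0.216, 0.101 and -0.0534 points. For Gabra4 all but 1 flank bin belong to another protein-coding gene, and against that bin alone the differences were 0.388, 1.44 and 0.885 points.

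Gabra5 was the gene below its flank, with differences of -0.932 points in the sleep-deprived library, -0.962 points in the ACE-seq control and -1.05 points in the DDD-seq control. All but 1 of its flank bins belong to other protein-coding genes, Gabrg3 among them. Against the remaining bin alone the differences were -0.919, -0.0174 and -0.458 points. The 5 bins just outside its 3′ end, on the Gabrg3 side, had means of 1.50%, 1.17% and 1.34% in the 3 libraries, near the body levels. The high flank bins lay on the other side, beyond its 5′ end, so Gabra5 was not low against both sides.

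**Figure D2:**
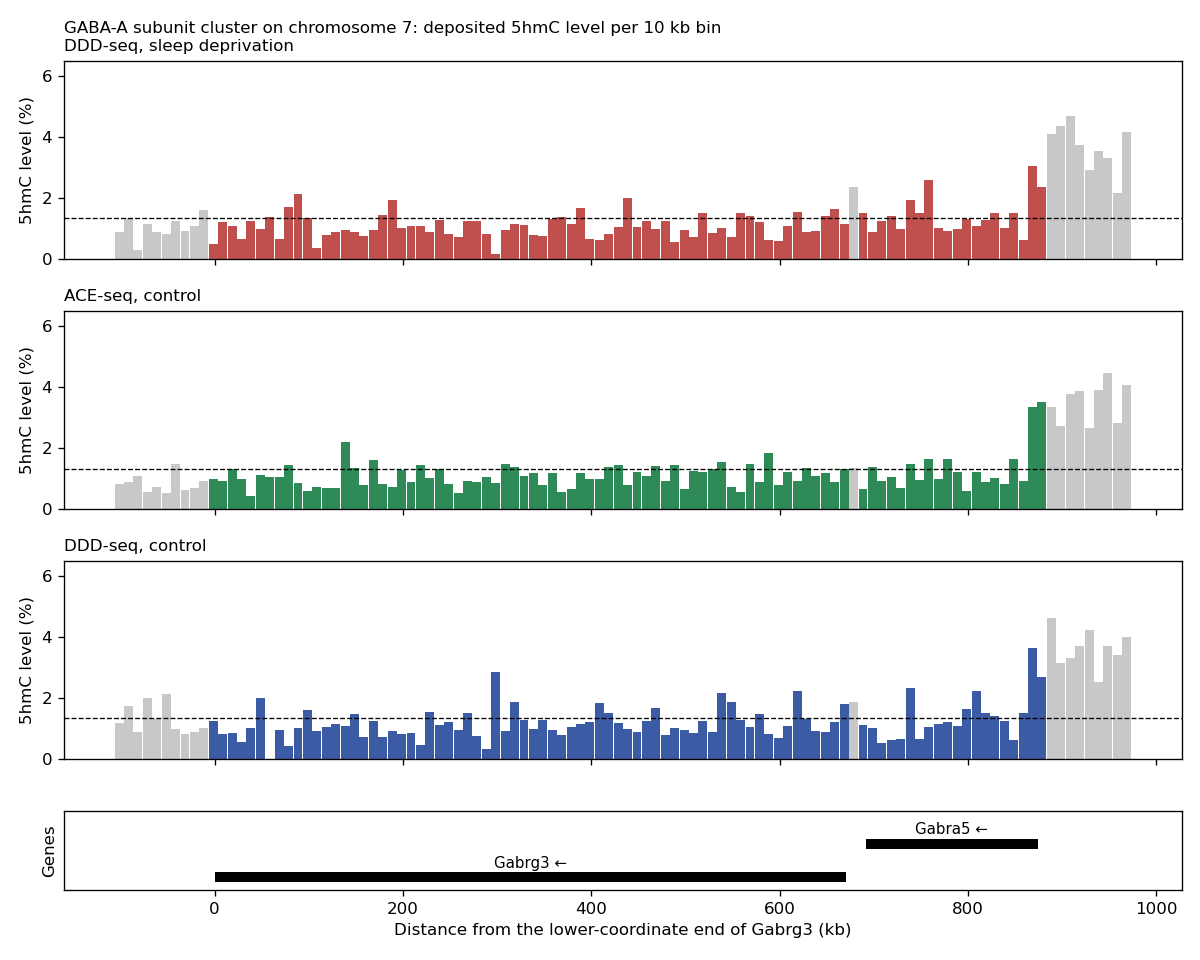
The map of the chromosome 7 cluster shows the 5hmC level in percent of each 10 kb bin by distance in kb from the lower-coordinate end of Gabrg3, for the sleep-deprived library, the ACE-seq control and the DDD-seq control from top to bottom. Coloured bars are bins of Gabrg3 and Gabra5, grey bars are other bins, the dashed line is the median over all bins of that library (1.36%, 1.33% and 1.36%), and arrows give the direction of transcription. Bins over Gabrg3 and most of Gabra5 lie near or below the line in each library, and the levels step up at the last 2 bins of Gabra5.

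Within the chromosome 7 cluster the level stepped at the upstream end of Gabra5. Gabra5 is on the minus strand, and its last 2 bins by coordinate, chr7:57580001-57600000, hold the far upstream end of its annotated body. They had a mean of 2.71% in the sleep-deprived library, 3.44% in the ACE-seq control and 3.17% in the DDD-seq control. The other 18 bins had 1.30% ± 0.11, 1.10% ± 0.08 and 1.20% ± 0.12. The division into 2 and 18 bins was made after the values were seen, and the last bin also overlaps another protein-coding gene. The RefSeq promoter entry of Gabra5 starts transcription at position 57510059, which is 81.0 kb inside that upstream end, so that the high bins lie well upstream of this start site. The 12 bins up to the bin of that site had 1.36% ± 0.14, 1.10% ± 0.11 and 1.09% ± 0.14, and the 8 bins beyond it 1.56% ± 0.28, 1.67% ± 0.40 and 1.86% ± 0.34.

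Gabrg3 was low along most of its length. Of its 68 bins, 31 lay below the median of all bins in all 3 libraries and 0 lay above it in all 3, where the shares over genic bins were 19.5% and 37.8%. Its bins ranged from 0.183% to 2.14% in the sleep-deprived library, from 0.447% to 2.20% in the ACE-seq control and from a listed 0 in 1 bin to 2.86% in the DDD-seq control. Its 5′ part and 3′ part, divided at the middle bin, had 1.09% ± 0.06 and 1.05% ± 0.07 under sleep deprivation, 1.11% ± 0.05 and 1.04% ± 0.06 in the ACE-seq control, and 1.22% ± 0.07 and 1.07% ± 0.09 in the DDD-seq control. A 5′ part higher by any amount in all 3 libraries was seen in 49.0% of genes of at least 10 bins. The ups and downs between its bins differed between the libraries. Across the 68 bins Pearson's r was -0.164 between the sleep-deprived library and the DDD-seq control, 0.0186 between the ACE-seq and the DDD-seq control, and -0.105 between the sleep-deprived library and the ACE-seq control. For 1083 genes of at least 20 bins the median r was 0.604, 0.549 and 0.566, and bins of a gene share their library and depth. The 100 kb below its lower-coordinate end were also low, with 1.03% ± 0.11 in the sleep-deprived library, 0.832% ± 0.090 in the ACE-seq control and 1.30% ± 0.15 in the DDD-seq control.

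**Figure D3:**
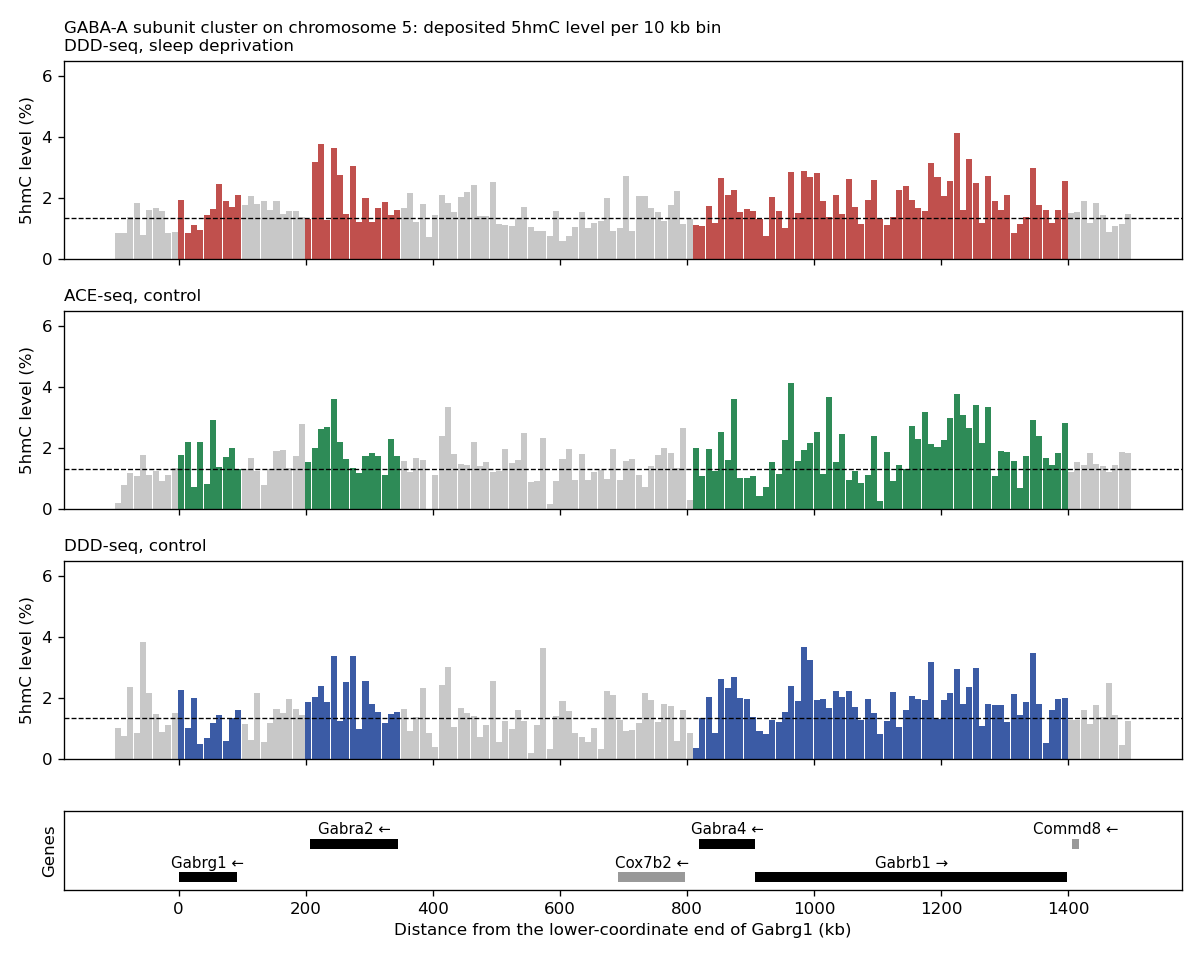
The map of the chromosome 5 cluster shows the 5hmC level in percent of each 10 kb bin by distance in kb from the lower-coordinate end of Gabrg1, for the sleep-deprived library, the ACE-seq control and the DDD-seq control from top to bottom. Coloured bars are bins of the 4 subunit genes, grey bars are other bins, the dashed line is the median over all bins of that library, and arrows give the direction of transcription. The raised bins over the lower-coordinate side of Gabra2 and along Gabrb1 recur in all 3 panels, whereas the stretch between Gabra2 and Gabra4 averaged 1.38 to 1.50% before Cox7b2.

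In the chromosome 5 cluster the levels were uneven within genes. Each gene was split at its middle bin into a 5′ part and a 3′ part in the direction of transcription. Gabra2 was higher at the 3′ end, with 2.57% ± 0.37 in the 3′ part and 1.58% ± 0.12 in the 5′ part in the sleep-deprived library. These parts had 2.21% ± 0.26 and 1.67% ± 0.15 in the ACE-seq control, and 2.34% ± 0.26 and 1.59% ± 0.19 in the DDD-seq control. A 3′ part higher by at least 0.25 points in all 3 libraries was seen in 4.90% of 2243 genes of at least 10 bins, while 27.5% had such a lead of the 5′ part. Its bin chr5:70990001-71000000 had 3.65% in the sleep-deprived library, 3.60% in the ACE-seq control and 3.38% in the DDD-seq control and was the only bin of the 6 genes above the 95th percentile of all bins in each library. That percentile was 3.06%, 3.06% and 3.13%. Of the 15 bins of Gabra2, 9 lay above the median of all bins in all 3 libraries, beside 37.8% of genic bins. Pearson's r across these 15 bins was 0.581 between the sleep-deprived library and the DDD-seq control and 0.404 between the ACE-seq and the DDD-seq control. Between the sleep-deprived library and the ACE-seq control it was 0.503. The median r over genes of 10 to 19 bins was 0.602, 0.555 and 0.572.

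At Gabrb1 the 3′ part was also the higher one in each library, but beyond the sum of the SEs only in the ACE-seq control. The 3′ and 5′ parts had 2.07% ± 0.16 and 1.86% ± 0.13 under sleep deprivation, 2.32% ± 0.15 and 1.63% ± 0.18 in the ACE-seq control, and 1.97% ± 0.13 and 1.76% ± 0.14 in the DDD-seq control. The 3′ part was the higher one by any amount in all 3 libraries in 17.6% of genes. The first 6 bins of Gabrb1 had 1.38% ± 0.18, 1.20% ± 0.26 and 1.20% ± 0.11, and the other 44 bins had 2.04% ± 0.11, 2.08% ± 0.13 and 1.96% ± 0.10; this division followed a look at the values. Over the gene, 26 of 50 bins lay above the median of all bins in all 3 libraries and 4 below it. The shares over genic bins were 37.8% and 19.5%. Pearson's r across its bins was 0.626 between the sleep-deprived library and the DDD-seq control, 0.468 between the ACE-seq and the DDD-seq control and 0.514 between the sleep-deprived library and the ACE-seq control. The median r over genes of at least 20 bins was 0.604, 0.549 and 0.566, so Gabrb1 was near or below it.

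Gabra4 and Gabrb1 meet head to head, and their first bins differed. The 5 bins at the 5′ end of Gabra4, the shared bin included, had means of 1.83% ± 0.15 in the sleep-deprived library, 1.68% ± 0.50 in the ACE-seq control and 2.07% ± 0.22 in the DDD-seq control. The 5 bins just outside that end, which belong to Gabrb1, had 1.34%, 1.22% and 1.16%. The step was 0.485, 0.454 and 0.906 points, where the median step into the 5′ end over 2267 genes of at least 10 bins was 0.291, 0.316 and 0.311 points. In the ACE-seq control the SE exceeded the step, and 1 of the 5 bins had 3.62% while the others had 1.02% to 1.62%. The step into the 5′ end of Gabrb1, where the 5 bins outside belong to Gabra4, was -0.595, -0.971 and -1.19 points. Gabra4 had its highest bin at chr5:71620001-71630000 in both control libraries, with 3.62% by ACE-seq and 2.68% by DDD-seq. In the sleep-deprived library the highest was chr5:71600001-71610000 with 2.66%. Across its 10 bins r was 0.880 between the sleep-deprived library and the DDD-seq control and 0.465 between the ACE-seq and the DDD-seq control. The median r over genes of 10 to 19 bins was 0.602 and 0.555 for these pairs.

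Gabrg1 peaked at a different bin in each library. Its highest bin was chr5:70810001-70820000 in the sleep-deprived library with 2.47%, chr5:70800001-70810000 in the ACE-seq control with 2.92% and chr5:70750001-70760000 in the DDD-seq control with 2.27%. Across its 10 bins r was 0.309 between the sleep-deprived library and the DDD-seq control, -0.261 between the ACE-seq and the DDD-seq control and -0.147 between the sleep-deprived library and the ACE-seq control. The median r over 1821 genes of 10 to 19 bins was 0.602, 0.555 and 0.572. The 10 bins between Gabrg1 and Gabra2 had 1.71% ± 0.07, 1.61% ± 0.17 and 1.39% ± 0.17. Cox7b2, a cytochrome c oxidase subunit gene inside the cluster, had 1.68% ± 0.17, 1.55% ± 0.16 and 1.40% ± 0.15, and the 2 bins of Commd8 beyond Gabrb1 had 1.54%, 1.38% and 1.28%.

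**Figure D4:**
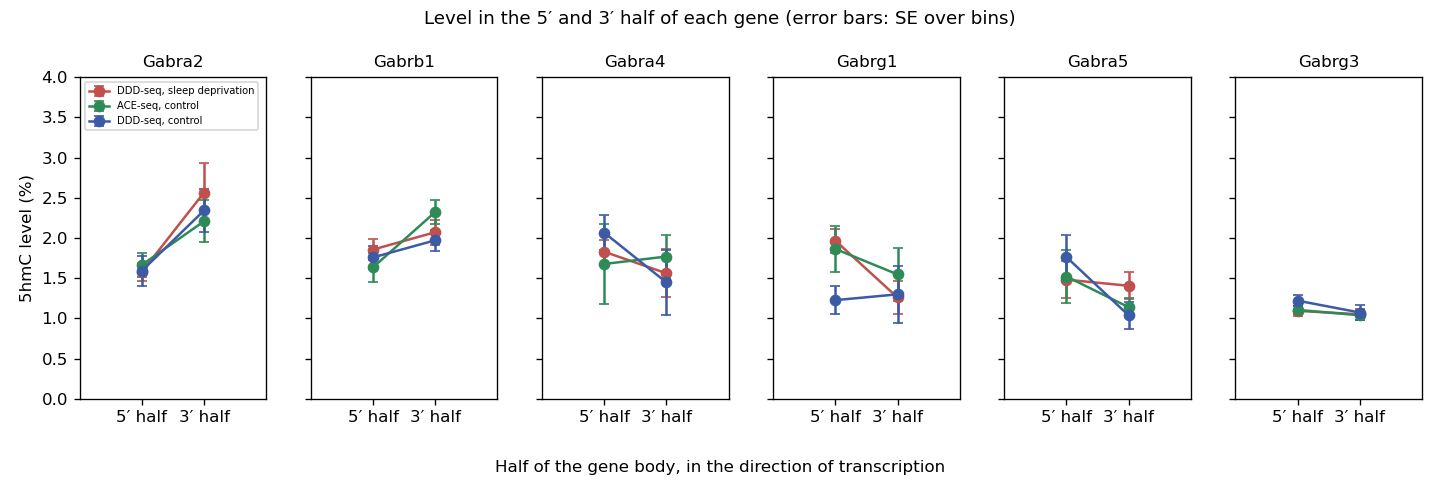
The plot of the parts of each gene gives the mean 5hmC level in percent of the 5′ part and the 3′ part of each gene in the direction of transcription, 1 line per library, with bars for the SE over bins. Gabra2 and Gabrb1 are higher in the 3′ part in all 3 libraries, Gabrg3 is flat near 1%, and the Gabrg1 lines diverge at the 5′ part, with 1.97% in the sleep-deprived library, 1.86% in the ACE-seq control and 1.23% in the DDD-seq control.

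Bins at the upper end of the genome were few. Of the 172 bins, 7 in the sleep-deprived library, 11 in the ACE-seq control and 7 in the DDD-seq control lay above the 95th percentile of all bins, beside 8.52%, 8.52% and 8.47% of genic bins. Gabra2 held 4, 1 and 2 of them and Gabrb1 3, 7 and 4, while Gabrg1 and Gabrg3 held 0 in each library. Below the 5th percentile lay 3, 1 and 3 bins, beside 1.65%, 1.66% and 1.61% of genic bins, and Gabrg3 held 3, 0 and 2 of them.

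The sleep-deprived library was set against the control by DDD-seq to see whether 5hmC over the subunit genes differed under chronic sleep deprivation. A gene was called when the mean difference over its bins reached 0.25 points. Of the 6 genes, 1 was called higher and 0 lower, where 6.87% and 8.06% of the 6665 genes were called. The called gene was Gabrg1, with 1.61% in the sleep-deprived library against 1.26% in the control, a difference of 0.351 ± 0.208 points, and 7 of its 10 bins were higher. Among the 1837 genes of 8 to 12 bins, whose levels rest on about as many bins, 7.62% were called higher and 9.31% lower, or 16.9% in either direction. Without the bin of the largest difference, chr5:70820001-70830000 (1.91% under sleep deprivation, 0.581% in the control), the Gabrg1 difference was 0.242 points, under the threshold.

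The other 5 genes differed by less than 0.25 points. Long genes average over more bins, and of the 1094 genes of at least 20 bins, such as Gabrb1, Gabrg3 and Gabra5, 1.46% were called higher and 1.74% lower. The difference was 0.113 ± 0.200 points at Gabra2, with 8 of 15 bins higher, and 0.0991 ± 0.0855 points at Gabrb1, with 22 of 50 bins higher. It was 0.0441 ± 0.148 points at Gabra5, -0.0621 ± 0.123 points at Gabra4 and -0.0743 ± 0.0784 points at Gabrg3, where 30 of 68 bins were higher. At Gabrb1 and Gabra5 the median difference over bins had the other sign, with -0.0431 and -0.131 points. The median difference of the 6 genes was 0.0716 points, beside -0.00285 points over all genes. Single bins differed more than whole genes, and those that differed by at least 1 point numbered 10 of 68 at Gabrg3, 6 of 50 at Gabrb1, 4 of 15 at Gabra2, 2 of 10 at Gabrg1, 2 of 20 at Gabra5 and 0 of 10 at Gabra4. Together these were 13.9% of the bins of the 6 genes, with the shared bin counted for each gene, beside 8.98% of genic bins.

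**Figure D5:**
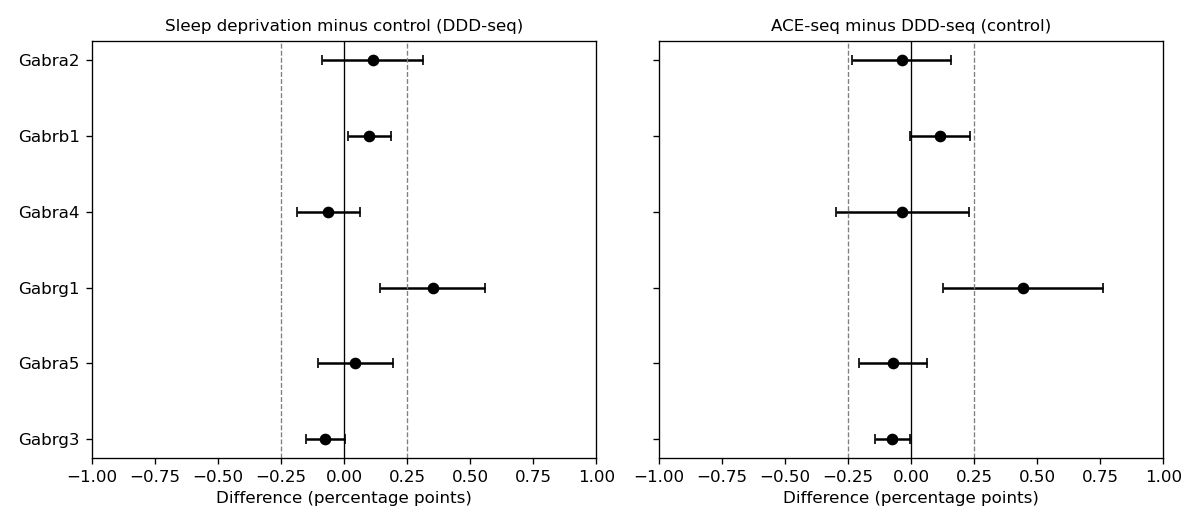
The plot of differences gives, for each gene, the mean difference over its bins in percentage points, sleep-deprived minus control by DDD-seq on the left and ACE-seq minus DDD-seq in control tissue on the right, with bars for the SE over bins and dashed lines at the threshold of 0.25 points. Gabrg1 is the gene beyond the threshold in both panels, which share the DDD-seq control, and its bars reach back across the dashed line.

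The ACE-seq library was set against DDD-seq in control tissue to compare the methods over the same genes. In the labels, the protocol written for ACE-seq does not differ from that for DDD-seq. Again 1 of the 6 genes was called higher and 0 lower, where 6.11% and 12.6% of all genes were called. Gabrg1 had 1.71% by ACE-seq against 1.26% by DDD-seq, a difference of 0.443 ± 0.318 points with 6 of 10 bins higher, and of genes of 8 to 12 bins 6.70% were called higher and 13.9% lower, or 20.6% in either direction. Both comparisons use the same DDD-seq control, in which Gabrg1 was at its lowest, so they are not independent. The difference was 0.114 ± 0.119 points at Gabrb1, -0.0342 ± 0.263 at Gabra4, -0.0367 ± 0.196 at Gabra2, -0.0698 ± 0.135 at Gabra5 and -0.0744 ± 0.0689 at Gabrg3. At Gabra2 the median difference over bins had the other sign, with 0.182 points. With the libraries scaled to equal means, Gabra2 and Gabra4 differed by 0.0164 and 0.0126 points, also of the other sign. Of genes of at least 20 bins 1.19% were called higher and 4.94% lower. The median was -0.0355 points over the 6 genes and -0.0457 points over all genes. Bins that differed by at least 1 point numbered 12 of 50 at Gabrb1, 8 of 68 at Gabrg3, 5 of 10 at Gabrg1, 2 of 20 at Gabra5, 1 of 15 at Gabra2 and 1 of 10 at Gabra4, together 16.8% beside 10.8% of genic bins.

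Among the other GABA-A subunit genes, 7 of 13 had at least 5 measured bins. The highest was Gabrb2, a beta subunit gene on chromosome 11, with 7.03% ± 0.63 in the sleep-deprived library, 6.94% ± 0.63 in the ACE-seq control and 6.26% ± 0.55 in the DDD-seq control. The lowest in the DDD-seq control was Gabra3, an alpha subunit gene on chromosome X, with 1.34% ± 0.18, 1.18% ± 0.15 and 1.41% ± 0.26. Gabra6, an alpha subunit gene typical of cerebellar granule cells, rests on 3 bins and stood above all 6 genes described here in each library. It was the highest of the subunit genes under 5 bins and was picked after the values were seen. The others of that size ranged from 0.722% to 1.27% in the DDD-seq control. Under sleep deprivation Gabrb2 was the only one of the 7 called higher (0.762 ± 0.371 points), and 1 was called lower. Beside these calls stand 6.87% of all genes called higher and 8.06% called lower. In the ACE-seq against DDD-seq comparison Gabrb2 was again the only one called higher (0.675 ± 0.411 points), against the same DDD-seq control. There too 1 of the 7 was called lower, and the shares over all genes were 6.11% higher and 12.6% lower.

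Genes of the inhibitory synapse and of GABA metabolism had medians of 1.54% in the sleep-deprived library, 1.39% in the ACE-seq control and 1.35% in the DDD-seq control over 9 of 20 genes with enough bins, near the medians over all genes. The lowest in the DDD-seq control was Gad2, a GABA-synthesising enzyme gene, with 1.43% ± 0.10, 1.18% ± 0.19 and 1.004% ± 0.11. Under sleep deprivation 3 of the 9 were called higher and 0 lower, beside the shares of 6.87% and 8.06%. Over all 20 listed genes, of 1 bin or more, 4 were called higher and 4 lower, so the one-sided count held only for the 9. The 1 listed gene of at least 20 bins was not called. The share called over all genes of 1 bin or more was not computed for either comparison. The 3 called higher among the 9 were Gad2, Gad1, the other synthesising enzyme gene, and Abat, a GABA-degrading enzyme gene. Their differences were 0.422 ± 0.168 points over 8 bins, 0.276 ± 0.265 points over 5 bins and 0.256 ± 0.141 points over 12 bins. In the ACE-seq against DDD-seq comparison 0 of the 9 were called in either direction, beside 6.11% and 12.6% of all genes, while 0 of the 20 were called higher and 4 lower.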

How the data were processed

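The authors deposited a table of 5hmC levels in bins of 10000 bp for the 3 libraries, as a fraction from 0 to 1, with no read counts. Fractions were multiplied by 100 here. DNA was glycosylated and deaminated by SsdAcat, per the labels' protocols, which give the same text for the ACE-seq library. FastQC, Trimmomatic and Bismark are named in the submitters' processing notes, without versions. The notes name hg19, but the bins cover 21 mouse chromosomes. They were treated as GRCm38, because the last bin of each chromosome ends 1.33 to 212 kb after its last gene in RefSeq GRCm38.p6. The DDD-seq column headers carry the word "all", so runs may have been pooled. No unmodified control DNA was used here, so levels include any unconverted cytosine, and the CG content of the bins was not computed.

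A gene's level is the mean of the bins that overlap its body by at least 1 bp, and its flank is the bins within 100 kb of either end. Differences were taken bin by bin. A difference of 0.25 percentage points was called, over genes of at least 5 bins. With 1 library per group no test was run. Scripts used Python 3.11.15, numpy 2.4.6, pandas 2.3.3 and matplotlib 3.10.9 and were tested on simulated data. The 6 subunit genes, and the lists, were chosen with earlier results of these data known. Named genes are the 6 subunit genes, their neighbours in the clusters, the nearest gene in level, the highest and lowest gene of each list, and listed genes called in a comparison; Gabra6 was named after its values were seen. Some genes that this rule covers, and results that need them, are not reported here. Alternatives covered the bins used, the flank, the median, the threshold, scaling and values of 0.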

Additional observations from a re-analysis of the deposited data

How the results depend on the processing

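No paired analysis was possible because each group had 1 library, and for the same reason no replicate could be left out. A value was taken as kept when it moved by less than 1 SE over bins. Of the values of single genes, 251 were kept and 29 moved, and 2 that had reached the threshold changed sign. Counting values under the threshold too, 11 of 126 body minus flank differences and 9 of 84 differences between libraries had the other sign. The 2 past the threshold were the body minus flank difference of Gabra2 in the sleep-deprived library with the median over bins (-0.0627 points) and that of Gabrb1 in the DDD-seq control with a 50 kb flank (-0.000763 points). Many of the kept values could not move, so their number overstates stability. Within the gene bodies a 0 was listed in only 1 bin, of Gabrg3 in the DDD-seq control. Gabrg1, Gabra2 and Gabrg3 have 0 bins shared with another protein-coding gene, so leaving such bins out changed nothing there. Restricting the flank to bins outside protein-coding genes changed nothing at Gabrg1 and Gabra2. The count of the 6 genes above their flank in the sleep-deprived library was 1 with the median or a 50 kb flank. The count below it in the DDD-seq control was 2 with bins wholly inside the body or a 200 kb flank, and that in the ACE-seq control was 0 with flank bins outside protein-coding genes. At a threshold of 0.5 points, 0 genes in the sleep-deprived library, 0 in the ACE-seq control and 1 in the DDD-seq control lay above their flank, and 0 were higher in either comparison; at 0.1 points, 2 were higher in each. Over genes of at least 20 bins, 1.46% were higher and 1.74% lower under sleep deprivation, and 1.19% higher and 4.94% lower by ACE-seq. By the 99th percentile 0 of the 172 bins were high in each library. The 1st percentile is 0 in each, so no bin could lie below it, and the count of 0 low bins says nothing. With at least 20 bins the inhibitory synapse list held 1 gene, Gphn, at 2.63%, 2.57% and 2.53%. Without its bin of largest difference, an alternative chosen after seeing the data as was leaving out shared bins, Gabrg1 differed by 0.242 ± 0.198 points under sleep deprivation, which left 0 genes called higher, and by 0.298 ± 0.316 points by ACE-seq. The cause of these shifts was not tested. The missing read depth limits every value.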
